A study of Homo sapiens with 6 samples.

Results

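To ask how loss of the E3 ubiquitin ligase RNF25 affected the genes for chemokines that act mainly on monocytes and lymphocytes, their transcripts were examined in the SW839 renal cell carcinoma line. The genes were chosen by symbol as 10 CC, CX3C and CXC chemokines without the ELR motif (CCL2, CCL5, CCL20, CCL28, CXCL10, CXCL11, CXCL12, CXCL14, CXCL16 and CX3CL1), and 8 of them were found among the 30267 genes of the deposited table. CXCL12 and CXCL14 were not analysed here. Bulk RNA-seq of total RNA compared 3 libraries of cells expressing a short hairpin against RNF25 (shRNF25) and 3 of cells carrying the pLKO vector (shControl). No allele, drug or cytokine treatment is given for either group. The hairpin goes by a single library name, whereas the 3 control libraries have unlike names. The study's methods describe stable cells as made by lentiviral infection and puromycin selection. The libraries are called biological triplicates, with nothing said of separate infections, so p-values measure the spread between these libraries.

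Chemokines are small secreted proteins that bind G protein-coupled receptors and direct the migration of leukocytes. They are named by the spacing of their first cysteines, which are adjacent in CC chemokines, separated by 1 residue in CXC chemokines and by 3 in CX3C chemokines. Genes such as CCL20, CCL2 and CXCL10 are classical targets of NF-κB, whereas CXCL10 and CXCL11 are also induced by interferons through STAT and IRF proteins. CXCL16 and CX3CL1 stand apart in structure, since both are made as transmembrane proteins with a chemokine domain on a mucin-like stalk and are shed by ADAM10 and ADAM17.

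The sequences upstream of the transcript start are shown for CCL20, CXCL10 and CXCL11, the members with the largest falls (values below). CCL22, which is no member and is described later, also has an entry, with loose κB matches and none to the narrower κB or ISRE letters. RefSeq promoter entries were found for 6 of the 10 genes (CCL20, CCL28, CXCL10, CXCL11, CXCL12 and CXCL14). In the 250 bases before the start on GRCh38.p14, CCL20 is shown from chr2:227813592-227813841 (plus strand) and CXCL10 from chr4:76023498-76023747 (minus strand). For CXCL11, 30 bases from chr4:76036127-76036156 (minus strand) are shown. Capitals mark every match, on either strand, to loose κB letters (GGG, any 5 bases, then CC) or to the letters of an interferon-stimulated response element (ISRE; GAAA, any 2 bases, then GAAA). Capital runs of over 10 letters are overlapping matches. In the GENCODE 29 annotation, 20 bases of the CCL20 window, 127 of the CXCL11 window and 0 of the CXCL10 window are exon bases of the same gene.
CCL20: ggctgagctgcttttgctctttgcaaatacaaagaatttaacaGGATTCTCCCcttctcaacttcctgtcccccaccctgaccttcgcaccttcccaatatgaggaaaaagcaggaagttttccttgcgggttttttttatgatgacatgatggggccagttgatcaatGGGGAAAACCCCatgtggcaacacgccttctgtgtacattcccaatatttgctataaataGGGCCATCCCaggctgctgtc
CXCL10: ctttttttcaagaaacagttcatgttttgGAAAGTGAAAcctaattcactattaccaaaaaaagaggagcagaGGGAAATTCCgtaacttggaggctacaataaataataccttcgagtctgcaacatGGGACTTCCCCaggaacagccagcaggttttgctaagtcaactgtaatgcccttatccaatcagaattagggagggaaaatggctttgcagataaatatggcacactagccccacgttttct
CXCL11: gactcaaagaGGGAAATTCCtgtgccataa
The narrower κB letters (GGG, any 2 bases, then TTTCC) were found in the CCL20 window, 79 bases before the start on the opposite strand. Of all 35116 promoter windows of the same length, 1.73% held them. The ISRE letters were found once in the CXCL10 window, 221 bases before the start, against 3.02% of all windows, and not in the window of CXCL11 or CCL20. The same 10 letters GGGAAATTCC lie in the windows of CXCL10 (177 bases before the start) and CXCL11 (76 bases before the start), a spelling that was singled out after the matches had been seen and that 0.148% of all windows hold. The loose κB letters alone say little, as 54.4% of all windows hold them. The AP-1 letters TGANTCA were found in CXCL11 at 87 and in CXCL14 at 92 bases before the start (6.57% of all windows). The TATAAA box letters were found in CCL20 at 29 and in CXCL11 at 42 bases before the start (10.7% of all windows). Of the 2 CCL28 starts, the one farther upstream had 1 loose match 48 bases before it and the other had no κB or ISRE match. A match describes letters and not a bound site.

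The libraries held between 18647460 and 19943154 reads on genes, and whole reads could be recovered from the normalized counts. RNF25 itself was at 694, 534 and 536 normalized counts in the shControl libraries (replicates 1 to 3, the order kept throughout) against 214, 246 and 265 after knockdown (log2 fold change -1.27 ± 0.150 (SE), adjusted p = 0.000585). The cells carried the epithelial keratins KRT8 (22206 to 38009) and KRT18 (15768 to 18790) and the renal factor PAX8 (76.7 to 140.3). CA9, a marker of clear cell carcinoma, was at 7.74, 12.3 and 50.7 in shControl and at 8.20, 1.85 and 4.77 in shRNF25. KRT7, another keratin, fell (log2 fold change -0.72), and the mesenchymal filament gene VIM rose (1.31). Of the markers for cells that normally secrete or receive these chemokines, PTPRC (CD45) was between 3.81 and 14.6, CD14 between 2.16 and 8.31 and CD3E between 0 and 1.08. The summed level of the myeloid markers, of which 8 of 10 had values, was 68.5 to 79.9 in shControl and 68.6 to 103.0 in shRNF25. The lymphocyte markers (8 of 10) summed to 1144 to 1551 and 728 to 769, nearly all of it IL7R (1121 to 1534 and 695 to 741). The endothelial markers (7 of 8) summed to 498 to 703 in shControl and 498 to 652 in shRNF25, most of it PECAM1 (350 to 466 and 399 to 549). The fibroblast markers (8 of 8) summed to 1129 to 1305 and 891 to 1034, nearly all of it COL1A1 (1090 to 1258 and 848 to 992). These sums hide single genes. CDH5 fell (log2 fold change -4.12), from 73.0 to 198.6 in shControl to 3.64 to 8.31 in shRNF25. Only its control values reached the level needed for testing (given below). KDR (1.78) and, among the myeloid markers, ITGAM (0.86) rose. No marker with values was at 0 in every library. In MT-CO1, shControl replicate 1 stood apart, with 4.54% of its normalized counts against 1.46% to 1.80% in the other libraries. Pearson correlations of log2 levels were 0.9761 to 0.9875 between control libraries and 0.9941 to 0.9944 between knockdown libraries. The parts of these differences in the chemokine results were not tested.

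Among the chemokine genes, CCL20, CXCL10, CXCL11, CCL28 and CXCL16 fell after RNF25 knockdown, and none of the tested members rose. CCL20 kept 6.52% of its control level, CXCL10 19.3%, CXCL11 17.6%, CCL28 47.2% and CXCL16 54.9%. CCL5 did not pass the test, and CCL2 and CX3CL1 were too low to be tested. A gene was called where limma gave an adjusted p below 0.05 with a change of 1.5-fold or more, and was tested where 3 or more libraries reached 10 normalized counts. By these criteria 5 of the 6 tested chemokine genes were lower, whereas 7.10% of all 16554 tested genes were lower and 8.65% were higher. Each of the 6 had a value of at least 10 in all 6 libraries, so none entered through its control level alone. With limma, edgeR and DESeq2, 0 of the 6 were higher, also at an unadjusted p below 0.05. The median log2 fold change was -1.66 over the 6 genes and -0.013 over all tested genes. The members were chosen with earlier results of these data known, so these contrasts describe the genes and are no independent support. All 3 shRNF25 libraries lay below all 3 shControl libraries for the 5 called genes, a separation that 21.8% of all tested genes showed in this direction. In bulk RNA, fewer expressing cells and less RNA per cell cannot be told apart.

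**Figure D1:**
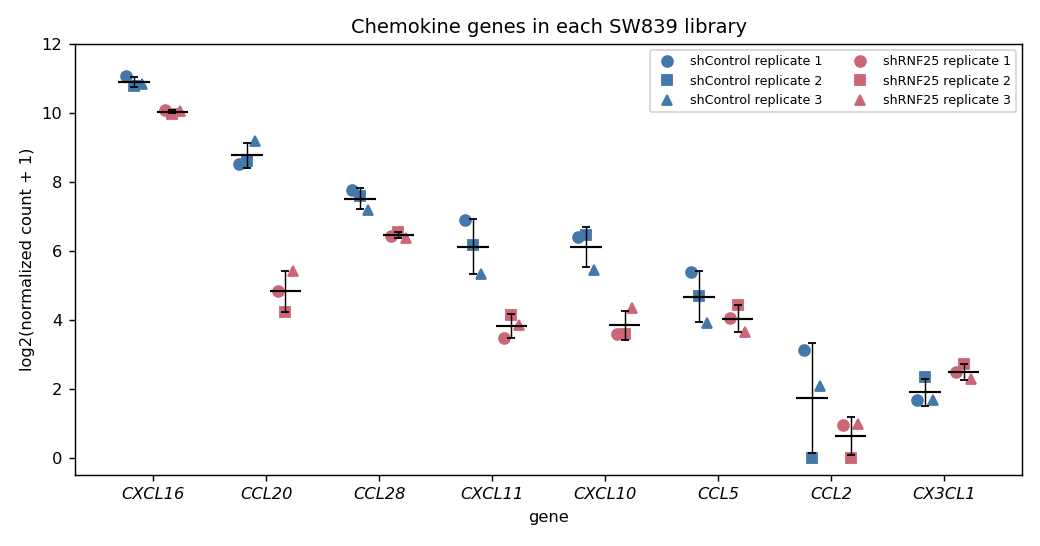
The plot shows log2(normalized count + 1) of the 8 measured chemokine genes in each library, with shControl in blue and shRNF25 in red, a horizontal line at the group mean and bars of 1 SD (n = 3). The groups are apart for CXCL16, CCL20, CCL28, CXCL11 and CXCL10 and overlap for CCL5, CCL2 and CX3CL1.

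CCL20, the only known chemokine ligand of CCR6, which draws Th17 cells, B cells and immature dendritic cells, had the largest fall among the tested members. Its normalized counts were 367, 389 and 576 in shControl and 27.3, 17.5 and 41.9 in shRNF25. These values rest on 332, 379 and 534 reads against 30, 19 and 44. The lowest control library was thus far above the highest knockdown library. The group means were 444 ± 115 (SD, n = 3) and 28.9 ± 12.3 (SD, n = 3), which is 15.4-fold lower (log2 fold change -3.95 ± 0.302 (SE), adjusted p = 6.37e-05). Among all tested genes it had the 23rd lowest log2 fold change.

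CXCL10 and CXCL11 share the receptor CXCR3, found on activated T cells and NK cells, and are neighbours on chromosome 4. CXCL10 was at 84.0, 87.2 and 42.1 in shControl and at 10.9, 11.1 and 19.1 in shRNF25. CXCL11 was at 117.2, 70.8 and 38.9 in shControl and at 10.0, 16.6 and 13.3 in shRNF25. Both genes were lowest among controls in replicate 3, and that library still lay above every knockdown library. On the log2 scale CXCL10 changed by -2.27 ± 0.343 (SE, adjusted p = 0.00212) and CXCL11 by -2.31 ± 0.384 (SE, adjusted p = 0.00339). Without shControl replicate 3 these were -2.60 and -2.71. The ratio of CXCL10 to CXCL11 was 0.717, 1.23 and 1.08 in the control libraries and 1.09, 0.667 and 1.43 in the knockdown libraries. The ratio overlapped between the groups, with a change of 0.04 in its log2 value. In shRNF25 both genes rest on 11 to 20 reads a library, so the depth of their fall is known only roughly.

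CCL28, the mucosal chemokine that binds CCR3 and CCR10 and is known to rise under hypoxia in tumors, fell less. It was at 218, 189.8 and 145.7 in shControl and at 85.7, 93.3 and 82.0 in shRNF25, a log2 fold change of -1.06 ± 0.181 (SE, adjusted p = 0.00376). CXCL16, the transmembrane ligand of CXCR6 and a scavenger receptor for oxidized lipoprotein, was at 2145, 1769 and 1825 in shControl and at 1085, 1010.3 and 1055 in shRNF25. Its log2 fold change of -0.86 ± 0.112 (SE, adjusted p = 0.00103) was the smallest fall among the 5 genes and, with a coefficient of variation of 10.6% in the controls, the most evenly measured. For each of the 5 genes the two-sided exact permutation test gave p = 0.1, below which 2 groups of 3 cannot go.

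The sizes of the falls were compared within libraries. The log2 ratio of CCL20 to CXCL16 within a library was -2.55, -2.19 and -1.66 in shControl and -5.31, -5.85 and -4.65 in shRNF25, so the ranges of the groups did not overlap. Of the 10 pairs among these genes, the log2 ratio did not overlap between the groups in 8, each with an exact permutation p = 0.1, the smallest possible. The pairs share genes and are not independent, and no share was computed for ratios of other gene pairs. For single-gene levels, a different measure, 42.5% of all tested genes did not overlap in either direction. The 2 pairs that overlapped were CXCL10 with CXCL11 and CCL28 with CXCL16, where the ratio changed by -0.20. With 3 libraries a group, this gives no firm order of the falls.

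CCL5 (RANTES), a ligand of CCR1 and CCR3, was at 40.9, 24.6 and 14.03 in shControl and at 15.5, 20.3 and 11.4 in shRNF25. The groups overlapped, because shControl replicate 3 lay below shRNF25 replicates 1 and 2. Its change of -0.63 ± 0.396 on the log2 scale (SE, adjusted p = 0.290, exact permutation p = 0.3) did not pass the test. It was -0.26 without shControl replicate 1 and -1.003 without shControl replicate 3 (adjusted p = 0.606 and 0.0698). Transcripts of CCL5 share 13.9% of their 50-base words with other genes, where counting could have lost reads, against 0% for CCL20, CXCL10, CXCL11 and CCL2 and at most 0.430% for the other measured members.

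CCL2 (MCP-1), the main ligand of CCR2 on monocytes, had 7, 0 and 3 reads in shControl and 1, 0 and 1 in shRNF25. The ratio of normalized summed reads was 0.174 (95% exact interval 0.0185 to 0.815), which covers counting error only, and the libraries overlapped. Without a filter on low values, its adjusted p was 0.391 (log2 fold change -1.10). CX3CL1 (fractalkine), the ligand of CX3CR1, had 2, 4 and 2 reads in shControl and 5, 6 and 4 in shRNF25, a ratio of 1.63 (95% exact interval 0.648 to 4.44). Its adjusted p without the filter was 0.415 (log2 fold change 0.59). For CCL2 the interval lies below 1 on counting error alone, but the libraries of the groups overlapped. For CX3CL1 no difference was detectable at this depth.

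To compare levels between genes, normalized counts were divided by the merged exon length of each gene. Per kilobase, CXCL16 was highest in shControl, at 685 ± 72.5 (SD, n = 3), followed by CCL20 at 279 ± 72.2. CXCL10 at 60.5 ± 21.4, CCL28 at 40.8 ± 8.03 and CXCL11 at 39.6 ± 20.6 came next and were within their spread of each other. CCL5 (17.5 ± 8.95), CCL2 (1.84 ± 1.96) and CX3CL1 (0.472 ± 0.185) were lower. In shRNF25 CXCL16 stayed highest, at 376 ± 13.5, whereas CCL28 at 19.2 ± 1.27, CCL20 at 18.2 ± 7.70, CXCL10 at 11.6 ± 3.96, CCL5 at 10.4 ± 2.94 and CXCL11 at 6.99 ± 1.73 lay close together. CCL20 thus moved from well above CCL28 to a level that did not differ from it beyond the spread. The summed level per kilobase of the 8 genes was 1210.1, 1047 and 1114 in shControl and 451, 426 and 454 in shRNF25. CXCL16 made up 58.6% to 63.4% of that sum in the controls and 83.2% to 86.2% after knockdown. CCL20 made up 19.0% to 32.4% and then 2.59% to 5.80%.

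**Figure D2:**
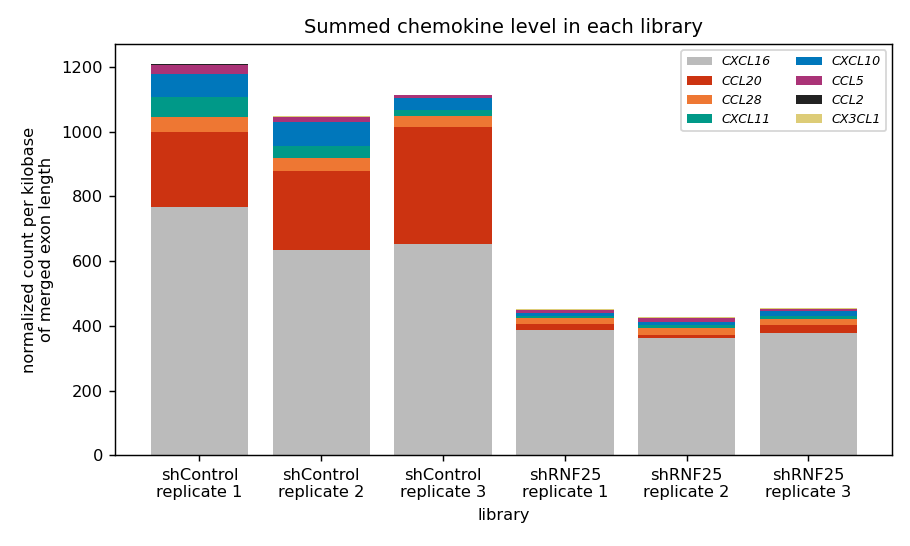
Stacked bars give the normalized count per kilobase of merged exon length of the 8 measured chemokine genes in each of the 6 libraries. The bars reach 1047 to 1210.1 in shControl and 426 to 454 in shRNF25, and the CCL20 segment nearly disappears in shRNF25 while CXCL16 remains the largest.

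Of a list of 27 other chemokine symbols of these classes, in which CXCL4 and PF4 name the same gene, 10 had values and 3 passed the filter. CCL22, a ligand of CCR4 known for attracting regulatory T cells, was at 89.5, 47.2 and 39.9 in shControl and at 3.64, 7.39 and 5.72 in shRNF25 (log2 fold change -3.14, standard error 0.372, adjusted p = 0.000619). PF4 (CXCL4) was at 15.5, 15.4 and 21.6 in shControl and at 1.82, 3.69 and 7.63 in shRNF25 (log2 fold change -1.91, adjusted p = 0.0158). Both passed the filter through their control values. PF4 lost its call without shRNF25 replicate 1 or 2 (adjusted p = 0.0595 and 0.0560), and its near-identical copy PF4V1 may have shared reads with it. CCL26 (log2 fold change -0.49, adjusted p = 0.281) did not pass. CXCL9, the third CXCR3 ligand, was at 1.08 to 6.63 in shControl and 1.91 to 4.56 in shRNF25, too low to be tested.

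Position on the chromosome was examined because several of these genes lie in clusters. Coordinates are from GENCODE 29 (GRCh38), in which 93.2% of the table's symbols were found. CXCL10 (chromosome 4, 76021117 to 76023497, minus strand) and CXCL11 (76033682 to 76041415, minus strand) are 10185 bases apart, and both lie within the span of ART3 on the plus strand without sharing exon bases. ART3 was near 0 in both groups (means of 2.50 and 1.86). CX3CL1 (chromosome 16, 57372458 to 57385048, plus strand) lies between CCL22, 6268 bases away, and CCL17, 19719 bases away. In that cluster CCL22 fell, while CX3CL1 and CCL17 (means of 1.42 and 1.83) stayed too low to be tested. CCL20 (chromosome 2, 227805739 to 227817564, plus strand), CCL28 (chromosome 5, 43376645 to 43412391, minus strand) and CXCL16 (chromosome 17, 4733526 to 4739922, minus strand) have no other listed chemokine gene within 100 kb. CXCL16 shares 3.04% of its exon bases with MED11 on the other strand, and ZMYND15 starts 93 bases from it. Neither passed the test, with log2 fold changes of -0.15 for MED11 and 0.19 for ZMYND15. CCL2 (34255218 to 34257203, plus strand) and CCL5 (35871491 to 35880793, minus strand) also lie on chromosome 17. Of the 34 tested genes within 100 kb of a measured member, other than members, 1 was lower (CCL22) and 2 were higher, MMP28 near CCL5 (log2 fold change 2.79, adjusted p = 0.000194) and VMO1 near CXCL16 (1.46, adjusted p = 0.00831). Over all tested genes 7.10% were lower and 8.65% higher. CCL22 passed the filter through its control values. MMP28, with means of 8.89 in shControl and 67.0 in shRNF25, passed it through its knockdown values. The neighbour counts therefore support nothing about position.

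**Figure D3:**
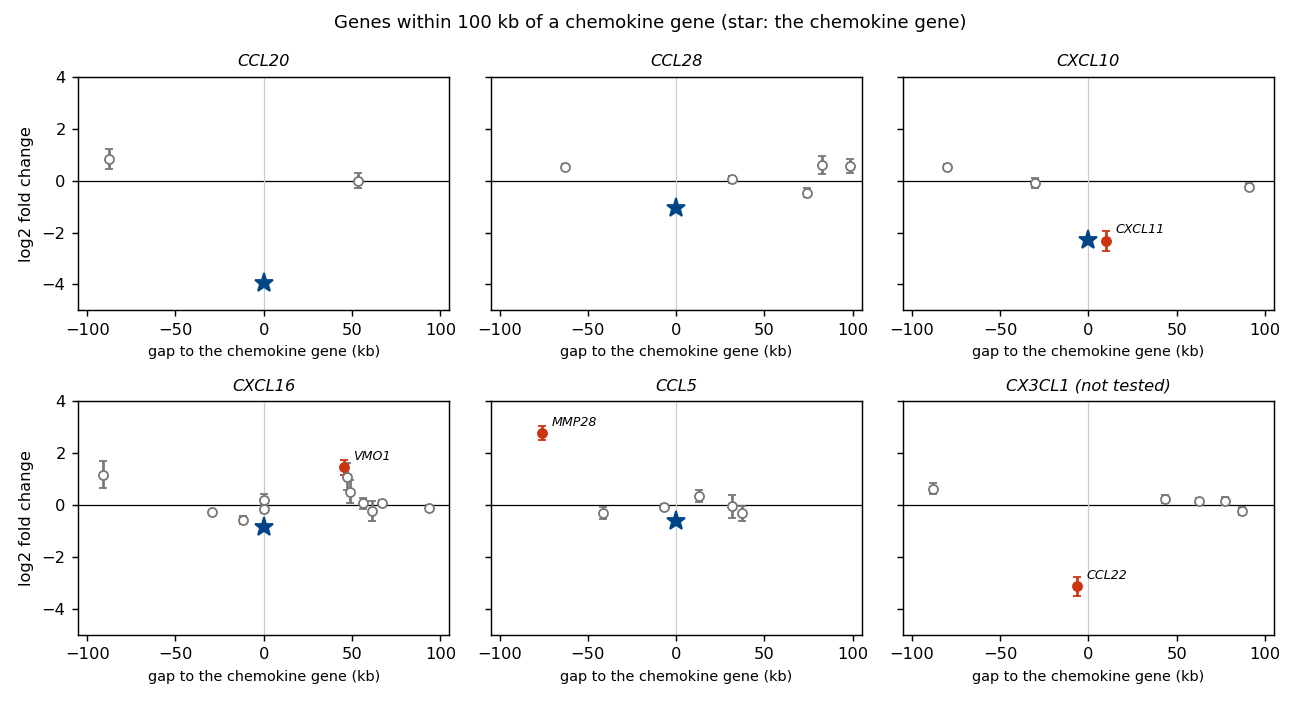
Each panel plots the log2 fold change with its standard error (y axis) of the tested genes within 100 kb of a chemokine gene against the gap between the genes in kb (x axis, negative towards lower coordinates). Filled red points passed both criteria, and the star is the chemokine gene. CXCL11 beside CXCL10 and CCL22 beside CX3CL1 are the called neighbours that fell, and MMP28 and VMO1 rose.

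Receptors for these chemokines had few reads. Of 16 receptor genes, 11 had values and 4 passed the filter. CCR1, which binds CCL5, was at 32.1, 38.0 and 39.9 in shControl and at 13.7, 9.24 and 13.3 in shRNF25 and fell (log2 fold change -1.54, standard error 0.262, adjusted p = 0.00376). The CCL28 receptors CCR3 (0.15, adjusted p = 0.642) and CCR10 (-0.22, adjusted p = 0.682) and the CXCL16 receptor CXCR6 (-0.57, adjusted p = 0.283) did not pass. CCR2 was at 0 to 3.08 in shControl and 4.62 to 6.38 in shRNF25, and CXCR4, the receptor of CXCL12, was between 0 and 3.64 in all libraries. CCR6, CXCR3 and CX3CR1 were not analysed here. ACKR3, the atypical receptor that takes up CXCL11 and CXCL12, was at 5.53, 6.16 and 54.0 in shControl and 4.62 to 5.47 in shRNF25, so its high value came from shControl replicate 3 alone.

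Among 14 atypical receptors and proteins that modify chemokines, 10 were tested, 1 was lower and 1 was higher. Over all tested genes 7.10% were lower and 8.65% higher. DPP4 (CD26), the dipeptidase that clips the N-termini of CXCL10, CXCL11, CCL5 and CCL22, rose from 175.8, 122.1 and 132.8 in shControl to 426, 372 and 385 in shRNF25 (log2 fold change 1.47, standard error 0.163, adjusted p = 0.000451). MMP9, a protease that can also trim chemokines, fell from 189.0, 171.3 and 153.3 to 11.8, 22.2 and 23.8 (log2 fold change -3.14, adjusted p = 0.000122). The sheddases of CXCL16 and CX3CL1 changed less. ADAM10 had a log2 fold change of -0.50 (adjusted p = 0.0203), under the fold criterion, and ADAM17 had one of -0.26 (adjusted p = 0.110). The scavenger ACKR2 (0.06) and CCRL2 (-0.06) did not pass.

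Regulators known to act on these promoters were then compared. Of 10 genes for NF-κB subunits and IκB proteins, all tested, 3 were lower by both criteria, against 7.10% of all tested genes. The median log2 fold change of the 10 was -0.49. The feedback inhibitor NFKBIA (-1.15, adjusted p = 0.000328) fell, as did NFKBIZ (-0.79, adjusted p = 0.00417) and the subunit REL (-0.85, adjusted p = 0.0193). REL lost its call without shRNF25 replicate 1, 2 or 3 (adjusted p from 0.0537 to 0.0835). NFKBIE (-0.58, adjusted p = 0.0252) and BCL3 (-0.55, adjusted p = 0.0126) were also lower but missed the fold criterion. NFKB2 (-0.38, adjusted p = 0.0627), NFKBIB (-0.34, adjusted p = 0.0999), RELA (-0.43, adjusted p = 0.148), RELB (-0.18, adjusted p = 0.466) and NFKB1 (0.08, adjusted p = 0.651) did not pass. At an unadjusted p below 0.05, limma had 7 of the 10 genes lower and 0 higher. The share of all tested genes at that level was not computed, so this count supports nothing about the list. DESeq2 called 4 genes of this list lower.

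Of 14 genes of the interferon axis, 12 were tested and 1 was lower, with a median log2 fold change of -0.15. STAT2 (-0.11), IRF9 (-0.03), IRF3 (-0.08), IRF7 (0.33) and IRF1 (-0.51, adjusted p = 0.116), transcription factors that act after interferon signalling or virus sensing, did not pass. Thus CXCL10 and CXCL11 fell in libraries in which transcripts of these 5 factors showed no called change. Among the controls, CXCL10, CXCL11, CCL5 and CCL28 were lowest in replicate 3, while CCL20 and IRF1 were highest there. The genes of the interferons IFNB1 and IFNL1 were at 0 to 4.62 in all libraries. IFNGR1 was the lower gene (-0.64, adjusted p = 0.0156). It lost its call without shControl replicate 3 (-0.52, under the fold criterion) and without shRNF25 replicate 1, 2 or 3 (adjusted p from 0.0597 to 0.0805).

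Of 9 cytokines and cytokine receptors known to induce chemokines, all tested, 5 were lower, against 7.10% of all tested genes. The list was written with earlier results of these data known, so the count supports nothing about such genes. The ligands TNF, IL1A, IL1B and IL6 had log2 fold changes between -6.42 and -3.83, beside -3.95 for CCL20, and TNF passed the filter through its control values. IL1RAP, the shared subunit of the IL-1 receptor, had -0.69 (adjusted p = 0.0252) and lost its call without shControl replicate 1 (-0.50, under the fold criterion), without shControl replicate 2 (adjusted p = 0.0604) and without shRNF25 replicate 1, 2 or 3 (adjusted p from 0.0818 to 0.112). TNFRSF1A (0.25), IL1R1 (-0.52, adjusted p = 0.122) and the IL-17 receptor subunits IL17RA (-0.09) and IL17RC (0.40) did not pass. Of HIF1A, EPAS1, VHL, TGFB1 and TGFBR2, genes of the hypoxia and TGF-β inputs to CCL28 and CXCL12, 0 were called with limma, edgeR or DESeq2, and 1 had an unadjusted p below 0.05 with each tool, which was TGFB1 with limma (-0.56, adjusted p = 0.0218).

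**Figure D4:**
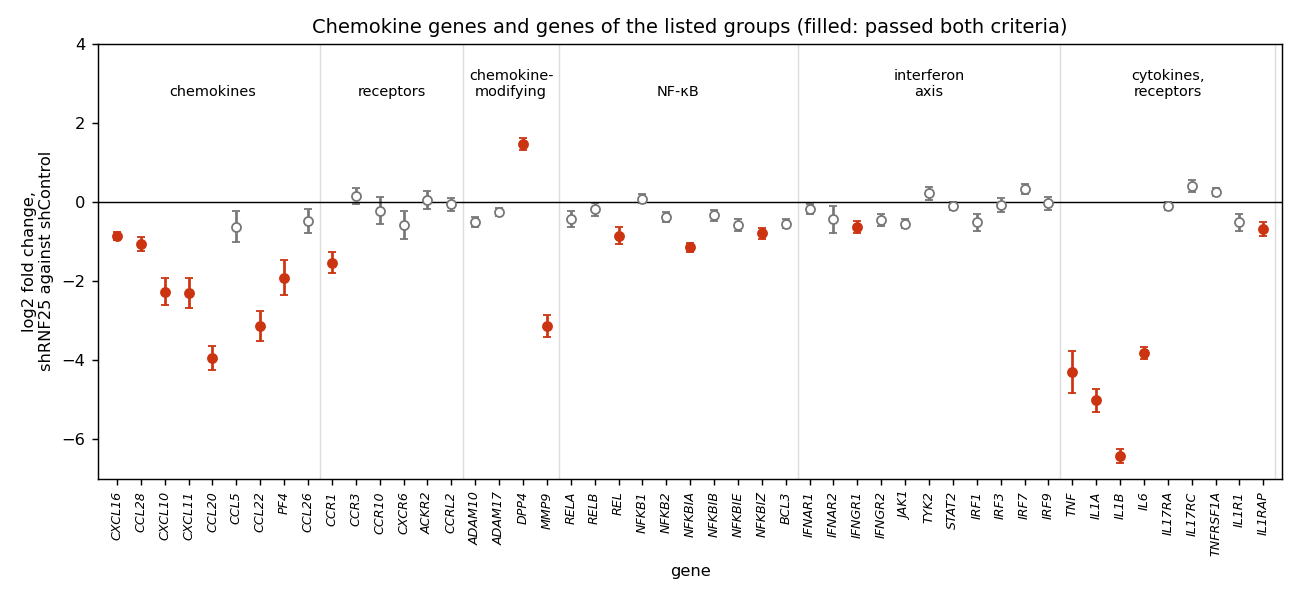
The y axis gives the log2 fold change of shRNF25 against shControl with its standard error for the tested chemokine genes and for genes of the receptor, chemokine-modifying, NF-κB, interferon and cytokine lists along the x axis. Filled red points passed both criteria. CCL20 (-3.95) and CCL22 (-3.14) fell furthest among the chemokines, while STAT2 (-0.11) and IRF9 (-0.03) stay near 0.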

How the data were processed

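The authors deposited 1 table of normalized counts, a signal obtained by dividing the count of each gene by 1 scaling factor for each library, with no correction for length. The submitters' processing notes name fastp, HISAT2, HTSeq and GRCh38, and the paper names a stranded kit with ribosomal RNA depletion and DESeq2. Versions of fastp, HISAT2 and HTSeq, the annotation and the strand setting of the counting are not given in the sources used here. Dividing by the smallest step of each library returned whole reads for 100% of values (tolerance 0.01 reads), and the scaling factors of 0.905 to 1.10 equaled median-of-ratios size factors.

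Samples were grouped by title, although the treatment protocol names the shRNF25 plasmid for control samples too. Deposited values were used as log2(normalized count + 1) in limma 3.58.1 (R 4.3.3, lmFit and eBayes with a trend, two-sided), with the group as the only term and Benjamini-Hochberg adjustment over 16554 genes with at least 10 in at least 3 libraries. All adjusted p-values and standard errors are from limma unless another tool is named. Calls required an adjusted p below 0.05 and 1.5-fold change, as in the paper. Fold changes on this scale understate those of genes with few reads. Alternatives were other pseudocounts, filters and scalings, edgeR 4.0.16 and DESeq2 1.42.0 on the recovered reads, library weights by group, a replicate block, each library left out, and a fold change of 2. Fits were tested on simulated data. Intervals and depth cover counting error only. The chemokine genes and all lists were chosen with earlier results of these data known. Named are all measured members, RNF25, the called genes of each list (at most 6), the known receptors and called neighbours; other list genes are named after their values were seen. Sequences come from RefSeq (GRCh38.p14). Motifs were searched on both strands of the 250 bases before each start. Some genes of the lists are counted but not reported by name here.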

Additional observations from a re-analysis of the deposited data

How the results depend on the processing

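CCL20, CCL28 and CXCL16 stayed lower and called at the 1.5-fold threshold under all 16 alternatives that tested them, and CXCL10 and CXCL11 under all 15. Their log2 fold changes ranged from -4.25 to -3.64 for CCL20, from -2.60 to -1.99 for CXCL10, from -2.71 to -1.93 for CXCL11, from -1.22 to -0.93 for CCL28 and from -0.91 to -0.76 for CXCL16. CCL5 was not called under any of 15 alternatives (-1.003 to -0.26). The count of lower members was 5 with each library left out and in every other setting but 2. With a filter of 50 normalized counts in 3 libraries 3 genes were tested and 3 were lower, and a fold change of 2 left 4, without CXCL16. In the other chemokine, receptor, regulator and cytokine lists, 13 of 53 tested genes were lower, 9 to 15 when 1 library was left out. This count includes CCL22, PF4 and TNF, which passed the filter only through their control values, and supports nothing about the lists. The 1 higher gene, DPP4, became 2 without a filter on low values, as CCR4, then tested, was called. The share of promoter windows with the κB letters was 54.4% for the looser spelling and 0.527% for a stricter one (GGGA, any base, then TTTCC), against 1.73%.

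Over all tested genes, 1175 were lower and 1432 higher. With a fold change of 2 there were 513 and 893, with the filter of 50 there were 898 higher, and with 1 library omitted the lower genes numbered 813 to 1269 and the higher 748 to 1725. The replicate numbers did not pair the libraries, since correlations of deviations between same-numbered libraries were -0.064, -0.087 and 0.047 and no control library correlated best with its own number. With the replicate block the count of lower members stayed 5, the lists had 13 lower and 1 higher gene, and all tested genes 1193 lower and 1398 higher. A batch matching the groups and the knockdown cannot be told apart. Precision at low counts limits CCL2, CX3CL1, CCL5 and the receptors.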
